A study of Homo sapiens with 46 samples.

Results

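U87MG cells whose splicing regulator TRA2B had been lowered with an siRNA were compared with U87MG cells given a control siRNA. The comparison takes 6 of the 46 samples of the series, chosen by the column names of the siRNA tables: 3 libraries with the siRNA against TRA2B (column names end in TRA2B_2, and the siRNA's sequence is not given in the sources used here) and 3 with the control siRNA. U87MG is an established human glioblastoma cell line. Both siRNAs were delivered at 10 nM with a lipofectamine reagent, and RNA was taken 48 hours later. MDA-MB-231, a breast cancer line handled in the same way with 3 libraries per group, was used to test where the U87MG response differed. The rest of the series, which used an antisense oligonucleotide against TRA2B splicing, was not analysed here. A single siRNA and a single control were used per line, so effects of the siRNA's sequence and of the loss of TRA2B cannot be told apart. The labels do not say that replicates came from separate cultures, so p-values measure only the spread between these libraries. The MDA-MB-231 siRNA samples carry a glioblastoma cell type label that their names and cell line label contradict, and were read as MDA-MB-231 here.

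TRA2B belongs to the SR family of RNA-binding proteins. It binds AGAA- and GAA-rich stretches inside exons and helps the spliceosome to include the exon, and TRA2A is its close paralog. Both genes carry a poison exon, an alternative exon whose inclusion leads to a transcript that is degraded or makes no full protein, and TRA2 proteins are known to favour inclusion of these exons and so to limit their own production.

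The 6 U87MG libraries held 74978304 to 111134596 counts, and mitochondrial genes took 1.73% to 2.28% of them. The mesenchymal markers VIM (7933 CPM in control libraries, where CPM is a gene's count scaled to the size of its library) and CD44 (2425 CPM) were present, and the epithelial keratins KRT8, KRT18 and KRT19 stood at 4.10, 0.381 and 0.0329 CPM against 546, 422 and 324 CPM in MDA-MB-231. VIM and CD44 are also members of the glioma and astroglia list. Of its other members, CHI3L1, SLC1A3, NES and SOX9 stood at 58.6, 50.4, 43.4 and 17.7 CPM in control libraries. In MDA-MB-231 controls they stood at 0.0, 14.1, 36.4 and 151 CPM. OLIG2 stood at 2.01 CPM in U87MG controls, GFAP at 1.71, FABP7 at 0.985, PTPRZ1 at 0.173 and S100B at 0.134 CPM. SOX2, OLIG1 and AQP4 did not reach the minimum count for testing. None of the 11 tested members of the glioma and astroglia list passed the edgeR test (0 rose and 2 fell at an unadjusted p below 0.05, and DESeq2 called 1).

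TRA2B (ENSG00000136527.18, chr3:185915906-185938136 on GRCh38, minus strand) was read first, as the check of the siRNA. The control libraries held 184, 174 and 186 CPM of TRA2B and the siRNA libraries 26.3, 22.2 and 28.1 CPM. TRA2B was therefore low in every siRNA library, with no overlap between the groups (log2 change -2.83, SE 0.072, edgeR adjusted p = 2.3e-09). TRA2A (ENSG00000164548.11, chr7:23504780-23532041, minus strand) stood at 55.6, 55.1 and 56.7 CPM in control and at 152, 165 and 171 CPM in siRNA libraries. TRA2A rose by 1.55 on the log2 scale (SE 0.043, edgeR adjusted p = 3.08e-09) and the groups did not overlap.

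**Figure D1:**
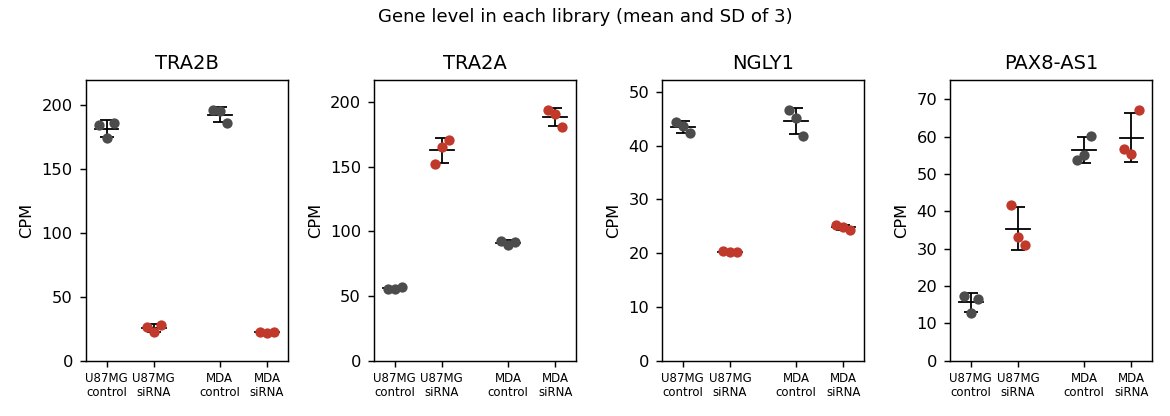
CPM (linear axis) of TRA2B, TRA2A, NGLY1 and PAX8-AS1 in each siRNA library of U87MG and MDA-MB-231; points are libraries, bars the mean and SD of 3. In U87MG the siRNA libraries lay below the controls for TRA2B and NGLY1 and above them for TRA2A and PAX8-AS1, with no overlap. For NGLY1 and PAX8-AS1 this was a condition of naming.

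The poison exons of both genes are shown because their inclusion is compared next. The exons were located in GENCODE v29, and for each the stretch read as coding in transcripts marked for decay is printed from that release, 5′ to 3′ on the sense strand, with the motif AGAA in capitals. Motifs were searched on the sense strand only, with overlaps allowed.
TRA2A, first 79 bases of the poison exon, chr7:23522354-23522432, minus strand: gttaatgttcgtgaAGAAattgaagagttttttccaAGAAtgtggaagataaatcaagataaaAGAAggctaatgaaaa
TRA2B, first 78 bases of the poison exon, chr3:185931775-185931852, minus strand: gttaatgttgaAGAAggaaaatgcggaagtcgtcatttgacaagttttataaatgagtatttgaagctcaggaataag
The whole TRA2A exon of 312 bases holds 13 AGAA and 4 GAAGAA, and 0.8% of 471 tested cassette exons of similar length (within 10.0%) hold as many AGAA. The whole TRA2B exon of 276 bases holds 12 AGAA, as many as 0.6% of 727 tested cassette exons of similar length. At least 1 AGAA stands in 75.8% and 71.8% of those exons.

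Splicing was read as the percent spliced in (PSI), deposited by the authors without the reads behind each value, so that its depth is unknown. PSI is the estimated fraction that includes the alternative stretch among transcripts spliced with the event's own flanking exons. It is not a fraction of all transcripts of the gene. The TRA2A poison exon in its form of 312 bases (chr7:23522121-23522432) had a PSI of 0.272, 0.324 and 0.304 in control and 0.065, 0.054 and 0.065 in siRNA libraries. All siRNA libraries lay below all controls, and inclusion fell from 0.30 ± 0.026 to 0.061 ± 0.006 (SD, n = 3 each, limma adjusted p = 0.00194, exact two-sided permutation p = 0.1, the smallest that 3 against 3 can give). A form of 301 bases that is shorter at its 3′ end fell from 0.272 to 0.057 with the same upstream exon (limma adjusted p = 0.00194). With another upstream exon it stood at 0.917 and 0.636 and was not called (limma adjusted p = 0.165). The form of 79 bases fell from 0.127 to 0.024 (limma adjusted p = 0.0177), a call that was lost without any 1 of the 6 libraries (adjusted p up to 0.0835), and stood at 1.000 and 0.975 with a further upstream exon. The forms share sequence and reads, so they are not separate measurements. In MDA-MB-231 the 312-base form stood at 0.188 in control and 0.039 in siRNA libraries, and the difference between the lines was not called (limma adjusted p = 0.586).

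The TRA2B poison exon (chr3:185931577-185931852) gave no such difference in the transcripts that remained. Its PSI was 0.096, 0.129 and 0.112 in control and 0.174, 0.131 and 0.112 in siRNA libraries. The groups overlapped, and the means of 0.112 ± 0.017 and 0.139 ± 0.032 (SD, n = 3 each) did not differ beyond their spread (exact two-sided permutation p = 0.3, limma adjusted p = 0.861). A further event of the same exon, with a more distal downstream exon, stood at 0.622 and 0.661 (exact two-sided permutation p = 0.6), and without siRNA-TRA2B replicate 1 its difference was -0.001 instead of 0.038.

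Across all splicing events, the siRNA was followed by more calls of lower than of higher inclusion. Of 63623 events tested with limma over the 12 siRNA libraries, 70 were called (adjusted p below 0.05 and a mean PSI difference of at least 0.10), which is 0.11% of those tested. Lower PSI was called for 51 (0.0802%) and higher PSI for 19 (0.0299%), while 31934 of all tested events had a lower and 31470 a higher mean. Among cassette exons, 38 were lower (0.0966% of 39323) and 13 were higher (0.0331%). Of the 70 called events, 52 lay in genes whose log2 CPM averaged 3 or more, 44 lower and 8 higher. The calls lay in 54 of 10814 genes with a tested event (0.499%).

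These calls rest on a spread estimated over both cell lines: with only the 6 U87MG libraries limma called 0 events (3395 at an unadjusted p below 0.05, smallest adjusted p = 0.0902), and without control replicate 2 it called 40. The excess of lower calls also rests on single libraries: lower and higher calls numbered 23 and 17 without control replicate 2, 25 and 22 without control replicate 3 and 36 and 27 without control replicate 1. Of the 70 events, 20 stayed called whichever 1 of the 6 libraries was left out, 15 of 51 lower and 5 of 19 higher, and these are called held.

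The sequences of exons whose inclusion was lower are shown because their content of the AGAA motif is read beside their values. For SGO1 and CCDC112 the 150-base window with the most AGAA is given, for the others the whole exon. AGAA is in capitals, 5′ to 3′ on the sense strand, GENCODE v29 sequence, GRCh38 coordinates.
SGO1, window of an exon of 807 bases, chr3:20174596-20174745, minus strand: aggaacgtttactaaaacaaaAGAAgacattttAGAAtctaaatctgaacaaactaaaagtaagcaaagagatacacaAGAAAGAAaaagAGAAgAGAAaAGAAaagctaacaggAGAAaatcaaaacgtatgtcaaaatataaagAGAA
CCDC112, window of an exon of 414 bases, chr5:115271315-115271464, minus strand: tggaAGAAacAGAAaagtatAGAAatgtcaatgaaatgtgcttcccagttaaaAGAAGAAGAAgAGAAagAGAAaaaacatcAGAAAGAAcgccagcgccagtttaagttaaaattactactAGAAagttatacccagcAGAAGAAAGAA
CENPE, exon of 75 bases, chr4:103163479-103163553, minus strand: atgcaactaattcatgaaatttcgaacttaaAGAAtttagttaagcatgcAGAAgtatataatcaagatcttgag
MICAL2, exon of 63 bases, chr11:12249184-12249246, plus strand: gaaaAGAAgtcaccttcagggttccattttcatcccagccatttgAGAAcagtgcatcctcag
CASP8, exon of 45 bases, chr2:201272898-201272942, plus strand: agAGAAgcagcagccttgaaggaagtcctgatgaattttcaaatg
MINK1, exon, chr17:4892402-4892512, plus strand: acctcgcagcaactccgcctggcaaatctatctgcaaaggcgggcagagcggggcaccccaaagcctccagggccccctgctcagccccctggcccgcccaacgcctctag
The whole CCDC112 exon holds 21 AGAA, as many as 0.4% of 241 tested exons of similar length, and the whole SGO1 exon 14, as many as 7.3% of 96. CENPE and MICAL2 hold 2 each, CASP8 holds 1 and MINK1 none. Among tested exons of similar length at least 1 AGAA stands in 85.5% for CCDC112, 93.8% for SGO1, 48.6% for CENPE, 45.3% for MICAL2, 33.8% for CASP8 and 53.5% for MINK1. A match describes the letters and is no evidence of binding.

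Counted as distinct exons, the lower cassette exons were on the whole longer and richer in AGAA than exons that were not called. There were 35 in 30 genes, with a median length of 146 bases, against 116 bases over 26797 tested exons that were not called. Exons of 300 bases or more made up 10 of the 35 (28.6%) and 6.0% of those not called. A length divisible by 3, which keeps the reading frame when the exon is skipped, was found in 23 (65.7%) against 40.4%. AGAA stood at a median of 1.64 per 100 bases against 0.58, and at least 1 AGAA was present in 29 (82.9%) against 56.3%. The longer GAAGAA was present in 11 (31.4%) against 11.8%, and the median GC content was 41.3% against 48.8%. The 13 higher exons, in 12 genes, had a median length of 127 bases, none of 300 bases or more, 9 (69.2%) divisible by 3 and, in the 12 with a sequence, a median of 1.21 AGAA per 100 bases, with at least 1 AGAA in 10 (83.3%) and GAAGAA in 2 (16.7%). The share of exons with an AGAA was thus close in lower and higher exons. In genes whose log2 CPM averaged 3 or more the median was 1.89 per 100 bases in 30 lower exons, 1.74 in the 6 higher exons with a sequence and 0.61 in exons that were not called. These are descriptions without a test; length, GC content and motif count move together, and their separate parts were not tested.

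**Figure D2:**
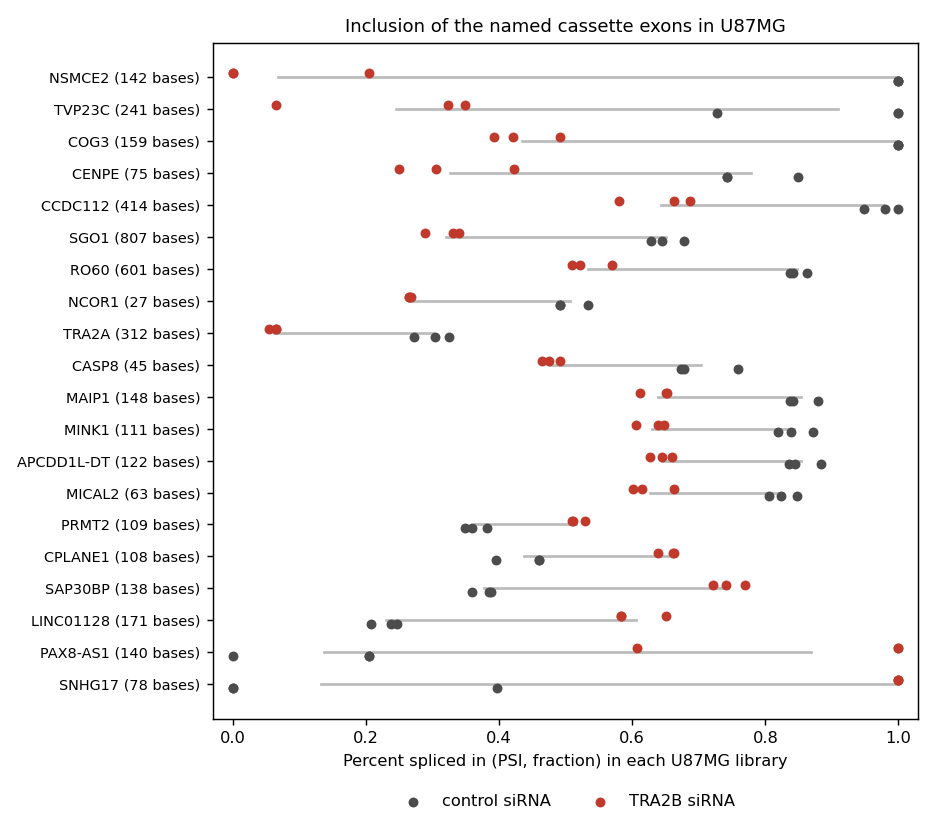
PSI (fraction, linear axis) of the named cassette exons in each of the 6 U87MG libraries; points are libraries, grey lines join the group means. Exons were chosen only if the groups did not overlap. SGO1 lies at 0.628 to 0.678 in control and 0.289 to 0.340 in siRNA libraries.

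Exons of genes that act in chromosome segregation were among the lower calls. SGO1 encodes shugoshin, which protects the cohesin at centromeres until anaphase, and its exon of 807 bases had a PSI of 0.628, 0.678 and 0.645 in control and 0.340, 0.289 and 0.331 in siRNA libraries. Inclusion was thus lower in every siRNA library and fell from 0.650 ± 0.025 to 0.320 ± 0.027 (SD, n = 3 each, limma adjusted p = 0.00448, held), and an alternative 5′ splice site in the same exon fell from 0.633 to 0.350 (limma adjusted p = 0.00673, held). In CENPE, a kinesin that carries chromosomes to the metaphase plate, the exon of 75 bases had a PSI of 0.849, 0.743 and 0.743 in control and 0.423, 0.305 and 0.250 in siRNA libraries. It fell from 0.778 to 0.326 (limma adjusted p = 0.0202), and with a nearer downstream exon from 0.360 to 0.152. NUF2, a part of the NDC80 complex of the kinetochore, included its exon of 141 bases at 0.981 and 0.810 (limma adjusted p = 0.0316). KIF23, a kinesin of the cytokinetic midzone, included its exon of 312 bases at 0.392 and 0.242 (limma adjusted p = 0.0385), and HAUS6, of the augmin complex that branches spindle microtubules, an exon of 1041 bases with 23 AGAA at 0.981 and 0.863 (limma adjusted p = 0.0149).

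Leaving out 1 library ended the calls of CENPE (adjusted p up to 0.0694, called only without siRNA-TRA2B replicate 1), NUF2 (up to 0.119, called only without siRNA-TRA2B replicate 3), KIF23 (up to 0.123, called only without siRNA-TRA2B replicate 1) and HAUS6 (up to 0.0639, lost without each control replicate). Of the mitosis list, 3 of 34 genes with a tested event had a call (CENPE, KIF23 and NUF2), against 0.499% of all such genes. SGO1 and HAUS6 are not members of that list.

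Inclusion also fell in NCOR1, RO60, CASP8 and SMAD5. NCOR1 is a corepressor of nuclear receptors, and its exon of 27 bases (chr17:16151590-16151616) had a PSI of 0.534, 0.491 and 0.492 in control and 0.264, 0.267 and 0.264 in siRNA libraries. The siRNA libraries lay close together below all controls (0.506 to 0.265, limma adjusted p = 0.00448, held). RO60, the Ro autoantigen that binds misfolded small RNAs, had values of 0.862, 0.837 and 0.842 in control and 0.521, 0.510 and 0.570 in siRNA libraries for an exon of 601 bases (0.847 to 0.534, limma adjusted p = 0.00531, held). CASP8, an initiator caspase, included the exon of 45 bases at 0.678, 0.759 and 0.673 in control and at 0.491, 0.475 and 0.465 in siRNA libraries. That exon fell from 0.703 to 0.477 (limma adjusted p = 0.0124, held), and from 0.642 to 0.403 as the first of a mutually exclusive pair (limma adjusted p = 0.00855, held). SMAD5, a transducer of BMP signals, fell from 0.744 to 0.546 for an exon of 75 bases (limma adjusted p = 0.00855, held).

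CCDC112, a coiled-coil protein gene whose exon is the richest in AGAA of those printed, had a PSI of 0.948, 1.000 and 0.980 in control and 0.662, 0.687 and 0.580 in siRNA libraries. The exon fell from 0.976 to 0.643 (limma adjusted p = 0.0128), with adjusted p up to 0.0615 without control replicate 2 or 3, where the call was lost. Exons of MICAL2, an enzyme that oxidises actin (0.826 to 0.626), MINK1, a kinase of the STE20 group (0.843 to 0.630), MAIP1, a mitochondrial matrix protein (0.853 to 0.638), and the non-coding APCDD1L-DT (0.854 to 0.644) were also lower. Their limma adjusted p lay between 0.0167 (APCDD1L-DT) and 0.0328 (MICAL2 and MAIP1). None of these 4 held: without 1 library the adjusted p reached 0.101 (MICAL2), 0.113 (MINK1), 0.119 (MAIP1) and 0.069 (APCDD1L-DT, lost without control replicate 1 or 2). In the lower calls outside the naming rule, chosen here after their values were seen, STARD4, a sterol carrier, stood at 0.886 and 0.690 and CCPG1, a receptor for ER-phagy, at 0.975 and 0.826 for an exon of 1406 bases with 32 AGAA. Of the sterol synthesis list, STARD4 was the only 1 of 18 genes with a tested event that had a call.

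The widest falls among the named exons stood in events with a PSI of 1.000 in at least 2 control libraries. COG3, of the Golgi tethering complex, went from 1.000 in each control to 0.392, 0.421 and 0.492 (limma adjusted p = 0.0205), and NSMCE2, a SUMO ligase, from 1.000 in each control to 0.000, 0.000 and 0.204 (limma adjusted p = 0.0167). TVP23C, a Golgi membrane protein, had values of 0.728, 1.000 and 1.000 in control and 0.348, 0.065 and 0.323 in siRNA libraries (limma adjusted p = 0.0237). GENCODE v29 places each of these exons only in transcripts marked for decay. The gene level changed on the log2 scale by 0.13 in COG3, 0.11 in NSMCE2 and 0.25 in TVP23C (edgeR adjusted p = 0.303, 0.375 and 0.026). Values of 0 and 1 can come from few reads, which were not given, and without 1 library the adjusted p of these events reached 0.0887 (COG3), 0.0739 (NSMCE2) and 0.0857 (TVP23C, lost without control replicate 2 or 3 or siRNA-TRA2B replicate 3).

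Higher inclusion was seen in fewer exons, of which SAP30BP held. SAP30BP encodes a transcription and splicing cofactor, and its exon is shown because it moved opposite to most, with 1 AGAA, as is present in 61.3% of tested exons of similar length.
SAP30BP, exon of 138 bases, chr17:75691394-75691531, plus strand: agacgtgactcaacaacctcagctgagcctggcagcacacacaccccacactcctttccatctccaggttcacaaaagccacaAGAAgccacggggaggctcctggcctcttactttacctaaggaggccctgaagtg
Its PSI was 0.384, 0.387 and 0.359 in control and 0.741, 0.722 and 0.769 in siRNA libraries. It rose from 0.377 ± 0.015 to 0.744 ± 0.024 (SD, n = 3 each, limma adjusted p = 0.00448), and GENCODE v29 places the exon only in a processed transcript without a coding frame. The non-coding LINC01128 rose from 0.226 to 0.589 for an exon of 174 bases (limma adjusted p = 0.00512, held). Its form of 171 bases, the one picked by the naming rule, rose from 0.230 to 0.606 (limma adjusted p = 0.025). The forms share sequence, so they are not separate measurements. CPLANE1, a ciliary gene, stood at 0.438 and 0.654 (limma adjusted p = 0.0339) and PRMT2, an arginine methyltransferase, at 0.363 and 0.516 (limma adjusted p = 0.0338), both calls lost without any 1 of the 6 libraries (adjusted p up to 0.112 and 0.127). SNHG17, a snoRNA host, went from 0.000, 0.000 and 0.396 to 1.000 in every siRNA library (limma adjusted p = 0.0167, up to 0.0639 without 1 library), the only call among 14 snoRNA hosts with a tested event.

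Among alternative 3′ splice sites 4 were lower (0.0945% of 4235) and 3 higher (0.0708%), among alternative 5′ splice sites 5 were lower (0.165% of 3034) and 1 higher (0.033%), and among mutually exclusive exons 4 were lower (0.0275% of 14570) and 1 higher (0.00686%). An alternative 3′ splice site that adds 3 bases to NRF1, a regulator of nuclear genes of mitochondria, had a PSI of 1.000 in each control and of 0.595, 0.495 and 0.495 in siRNA libraries (limma adjusted p = 0.00512, held). RMDN1, a microtubule-associated protein, used its longer 3′ splice site at 0.823, 0.829 and 0.839 in control and 0.607, 0.595 and 0.609 in siRNA libraries (limma adjusted p = 0.00673, held), and its gene level fell by 0.25 on the log2 scale. ZNF266, a zinc finger gene, fell from 0.513 to 0.274 at an alternative 5′ splice site (limma adjusted p = 0.00512, held). A retained intron of CCDC88A, which encodes the actin-binding protein girdin, rose from 0.108, 0.11 and 0.10 to 0.338, 0.402 and 0.434 (limma adjusted p = 0.00531, held), the single retained intron called of 2461 tested (0.0406%). In MDA-MB-231 the same intron stood at 0.396 and 0.713.

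Apart from the TRA2A gene, the genes listed as known TRA2 targets had no called event in U87MG. NASP, a histone chaperone, included its exon of 1017 bases with 29 AGAA at 0.246, 0.290 and 0.254 in control and 0.210, 0.185 and 0.159 in siRNA libraries (limma adjusted p = 0.21). The groups did not overlap, and the NASP gene level fell by 0.16 on the log2 scale (edgeR adjusted p = 0.00896). CHEK1, the checkpoint kinase, stood at 0.879 and 0.800 (limma adjusted p = 0.36), CD44 exon chr11:35211246-35211449 at 0.430 and 0.607 (limma adjusted p = 0.08, and from 0.0358, a call, with only genes of at least 10 CPM to 0.494 over the alternatives), CREM at 0.771 and 0.419 (limma adjusted p = 0.381) and HIPK3 at 0.210 and 0.182 (limma adjusted p = 0.753). SMN1 and SMN2 are near-identical copies whose reads cannot be told apart with certainty, and their events were not called either (limma adjusted p = 0.753 for each). MAPT, at a mean log2 CPM of 0.91, stood at 0.336 and 0.477 (limma adjusted p = 0.648). For each gene the tested event with the smallest p is given, so it need not be the exon known as a TRA2 target.

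Most exons with lower inclusion in U87MG also had lower means in MDA-MB-231. Of the 48 lower calls with values in all MDA-MB-231 libraries, 47 also had a lower mean in siRNA than in control libraries of MDA-MB-231, and of the 16 higher calls 9 had a higher mean. Among events that were not called but differed by at least 0.10 in U87MG, these shares were 59.1% of 3255 lower and 57.4% of 3031 higher events. The fit shares its spread between the lines, and whether the counts for lower and higher calls differ was not tested. SGO1 stood at 0.861 and 0.536 in MDA-MB-231, beside 0.650 and 0.320 in U87MG (difference between the lines -0.005, limma adjusted p = 0.99). SAP30BP stood at 0.848 and 0.894 in MDA-MB-231, where inclusion was already high in control libraries (difference 0.321, limma adjusted p = 0.0923). NRF1 stood at 0.972 and 0.966 (difference -0.466, limma adjusted p = 0.0923) and RMDN1 at 0.999 and 0.987 (difference -0.215, limma adjusted p = 0.0923).

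The difference between the lines was called for 1 of 40979 events (0.00244%; 2154 at an unadjusted p below 0.05), an alternative 5′ splice site of NPEPL1, an aminopeptidase gene. In U87MG it stood at 0.318 and 0.284, in MDA-MB-231 at 1.000 and 0.177 (difference 0.789, limma adjusted p = 0.0205). With genes of at least 10 CPM only, limma called 0 differences.

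**Figure D3:**
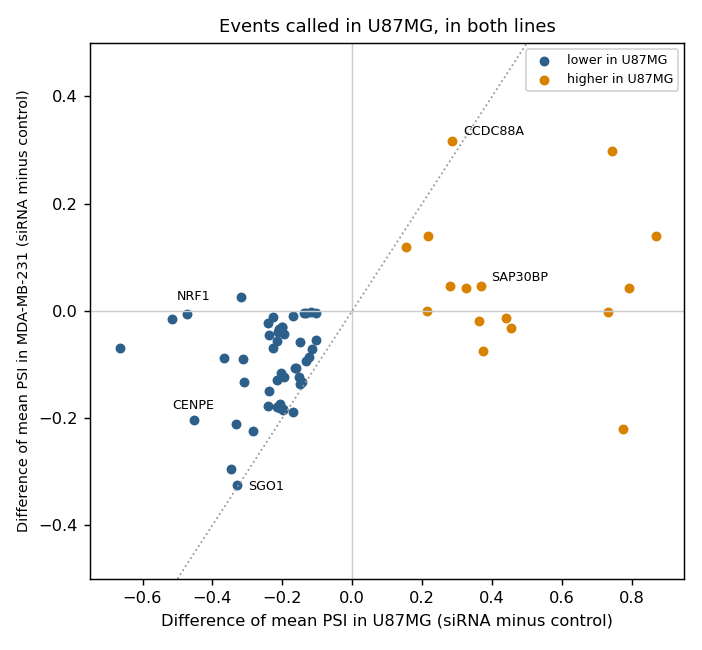
Difference of mean PSI (siRNA minus control) in U87MG on the x axis and in MDA-MB-231 on the y axis for the events called in U87MG that have a value in all MDA-MB-231 libraries; the dotted line marks equal differences. Of the 48 lower events 47 lie below 0 on the y axis, and of the 16 higher events 9 lie above 0.

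At gene level the siRNA shifted many genes by small amounts. Of 23141 genes tested with edgeR, 971 were called at an adjusted p below 0.05 (4.2%), 370 rose (1.6%) and 601 fell (2.6%), while the median log2 change over all genes was 0.00. Of the 971, 843 changed by less than 1.5-fold, and 50 (0.216% of those tested) by at least 2-fold, 36 up and 14 down. Of the 51 genes with a called splicing event and a gene level test, 5 were also called at gene level. Single libraries moved the count: it was 476 without control replicate 1, 613 without control replicate 2, 629 without control replicate 3 and 529 without siRNA-TRA2B replicate 1. DESeq2 called 1694 genes and edgeR without the low-count filter 481.

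After TRA2B the steepest fall among genes whose log2 CPM averaged 3 or more was that of NGLY1, the cytosolic enzyme that strips N-glycans from misfolded proteins. NGLY1 (chr3:25718944-25790039) stood at 44.5, 43.6 and 42.3 CPM in control and at 20.4, 20.2 and 20.2 CPM in siRNA libraries. The gene fell by 1.10 on the log2 scale (SE 0.045, edgeR adjusted p = 1.88e-07), with a log2 change of -0.85 in MDA-MB-231 (edgeR adjusted p = 3.33e-06). A mutually exclusive exon pair of NGLY1 stood at a PSI of 0.052 in control and 0.181 in siRNA libraries and missed the threshold (limma adjusted p = 0.0611).

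Other large falls were found in RC3H2, an RNA-binding ubiquitin ligase that destabilises mRNAs, FOXO3, a transcription factor that acts under low growth signals, and BARD1, the partner of BRCA1. RC3H2 stood at 148, 147 and 143 CPM in control and 80.8, 89.8 and 97.3 CPM in siRNA libraries (log2 change -0.71, SE 0.053, edgeR adjusted p = 9.16e-05). FOXO3 stood at 56.1, 54.6 and 54.0 CPM and then 32.0, 35.5 and 36.3 CPM (log2 change -0.67, SE 0.050, edgeR adjusted p = 9.16e-05). BARD1 stood at 39.5, 40.3 and 38.7 CPM and then 22.7, 26.5 and 25.7 CPM (log2 change -0.66, SE 0.060, edgeR adjusted p = 0.000235). Groups that did not overlap were a condition for naming these falls. Each of the 3 genes was called whichever library was left out. Falls of a like size were those of TNFRSF9, a costimulatory receptor (-0.73), PGF, a ligand of the VEGF family (-0.67), the protease ADAM19 (-0.64), the inositol kinase IPMK (-0.63), HERC3 (-0.63), the sialyltransferase ST8SIA5 (-0.62), DEPP1, a target of FOXO factors (-0.60), and IKBIP (-0.56). Their edgeR adjusted p ran from 0.000133 (IKBIP) to 0.00973 (IPMK). The HERC3 value is that of ENSG00000138641.18, and another tested entry with the same symbol had a log2 change of -0.1.

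Beside TRA2A, the largest rise among genes whose log2 CPM averaged 3 or more was in PAX8-AS1, a long non-coding RNA that runs antisense to PAX8. It stood at 17.4, 12.8 and 16.6 CPM in control and at 41.8, 33.1 and 31.0 CPM in siRNA libraries (log2 change 1.18, SE 0.131, edgeR adjusted p = 0.000738). An exon of 140 bases in PAX8-AS1 rose in PSI from 0.205, 0.205 and 0.000 to 0.607, 1.000 and 1.000 (limma adjusted p = 0.0252, up to 0.084 without 1 library). In MDA-MB-231 the gene stood at 56.4 and 59.7 CPM and the exon at 0.008 and 0.006. Strand use in counting was not stated, so reads of PAX8-AS1 and of PAX8 cannot be told apart with certainty.

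RND3, an atypical GTPase that loosens actin stress fibres, stood at 272, 272 and 262 CPM in control and 412, 420 and 364 CPM in siRNA libraries (log2 change 0.57, SE 0.079, edgeR adjusted p = 0.00285). NRG1, a ligand of ERBB receptors, stood at 103, 105 and 96.7 CPM and then 170, 149 and 131 CPM (log2 change 0.57, SE 0.086, edgeR adjusted p = 0.00438). Groups that did not overlap were a condition for naming these rises. Further rises were found in PNLIPRP3, a lipase-related gene (0.98), LINC01050 (0.96), RSPO3, a Wnt agonist (0.87), AUH, an enzyme of leucine breakdown (0.62), DIO2, which activates thyroid hormone (0.62), HMCN1, a matrix protein (0.59), LZTFL1, a ciliary gene (0.56), SERPINB2, a plasminogen activator inhibitor (0.55), and IFI44L, an interferon-induced gene (0.54). The calls of DIO2, HMCN1, SERPINB2, IFI44L and LZTFL1 were lost without at least 1 library, with edgeR adjusted p up to 0.138 for DIO2, 0.0897 for HMCN1, 0.0665 for SERPINB2, 0.121 for IFI44L and 0.0516 for LZTFL1 (without control replicate 1).

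Genes of cell division fell in larger number than they rose. Of the 45 genes of the mitosis list, 16 fell and 0 rose (35 lower and 0 higher at an unadjusted p below 0.05, and DESeq2 called 25 falls), beside 2.6% of all genes called as falls. The median log2 change of the list was -0.14, beside 0.00 over all genes tested in U87MG and 0.02 for the list in MDA-MB-231, and 42 of 45 members were below 0. A difference between the lines was called for 2 of the 45 genes. PLK1, a kinase that drives mitotic entry, stood at 124, 110 and 112 CPM in control and 86.6, 89.2 and 85.7 CPM in siRNA libraries (log2 change -0.41, SE 0.053, edgeR adjusted p = 0.00213). PLK1 also fell in MDA-MB-231 (log2 change -0.27, edgeR adjusted p = 0.00994). Its difference between the lines was not called (edgeR adjusted p = 0.573). The kinesins KIF18B (-0.39), KIF2C (-0.30), KIF14 (-0.30) and KIF20A (-0.29), the cyclin CCNA2 (-0.30), the transcription factor FOXM1 (-0.22) and the checkpoint kinases BUB1B (-0.21) and BUB1 (-0.18) also fell. CCNB1 (-0.09, edgeR adjusted p = 0.251) and AURKA (-0.03, edgeR adjusted p = 0.7) did not pass. CENPE, with the exon described before, had a log2 change of -0.17 (edgeR adjusted p = 0.0649), and SGO1 -0.01 (edgeR adjusted p = 0.957). KIF4A, a chromosome-bound kinesin, fell by 0.19, and its difference between the lines was -0.26 (edgeR adjusted p = 0.0499). Fewer dividing cells and less RNA per cell cannot be told apart in these bulk libraries.

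Of the 40 genes of the S phase list 5 fell and 0 rose, beside 2.6% and 1.6% of all genes (14 and 0 at an unadjusted p below 0.05, DESeq2 6 and 0), with a median log2 change of -0.07. Among them were GINS1 of the replicative helicase (-0.28), RRM2, the small subunit of ribonucleotide reductase (-0.26), the polymerase POLE (-0.19) and CDC45 (-0.19). RRM2 stood at 476, 458 and 431 CPM in control and 373, 396 and 371 CPM in siRNA libraries and held its call without each library, while the highest edgeR adjusted p without 1 library was 0.0863 for GINS1 and 0.16 for POLE. Of the 24 DNA repair genes 4 fell and 0 rose (8 and 0 at an unadjusted p below 0.05), with a median of -0.06, among them BARD1, the exonuclease EXO1 (-0.45) and the recombination gene XRCC2 (-0.30, edgeR adjusted p up to 0.0629 without 1 library). EXO1 stood at 34.0, 34.8 and 33.4 CPM in control and 23.3, 25.6 and 25.9 CPM in siRNA libraries (edgeR adjusted p = 0.000404), with no overlap.

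**Figure D4:**
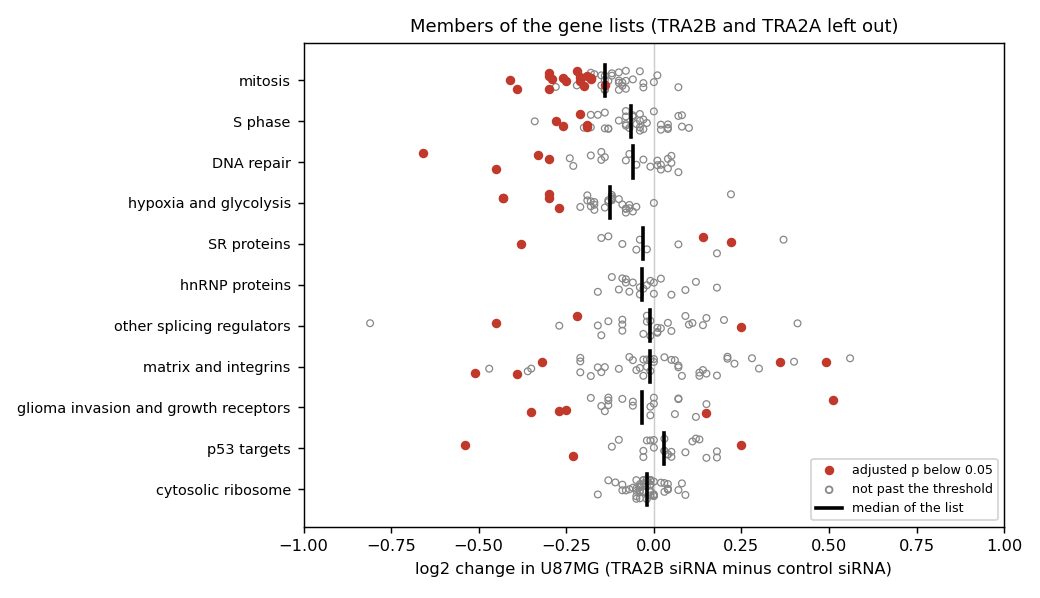
log2 change in U87MG (TRA2B siRNA minus control siRNA) of each tested member of selected gene lists, with TRA2B and TRA2A left out; filled points passed the edgeR test at an adjusted p of 0.05, open points did not, bars are list medians. PDGFB, with no counts in control libraries, lies outside the axis; the mitosis median lies at -0.14.

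Among the genes that regulate splicing, no called change other than those of TRA2A and TRA2B exceeded 0.45 on the log2 scale. Of 14 SR proteins 3 rose (TRA2A, SRSF10 and SRSF6) and 2 fell (TRA2B and SRSF4), beside 1.6% and 2.6% of all genes (4 and 4 at an unadjusted p below 0.05, DESeq2 3 and 3), with a median of -0.03. SRSF4 stood at 110, 113 and 116 CPM in control and 82.2, 86.7 and 92.0 CPM in siRNA libraries (log2 change -0.38, SE 0.042, edgeR adjusted p = 0.000668). SRSF10, whose protein represses splicing when dephosphorylated, rose by 0.22 (edgeR adjusted p up to 0.0913 without 1 library) and SRSF6 by 0.14. None of 20 hnRNP genes passed the edgeR test (2 higher and 2 lower at an unadjusted p below 0.05, DESeq2 1 lower), nor did any of 9 kinases of splicing factors (0 at an unadjusted p below 0.05, DESeq2 0). Of 29 further regulators SRRM1, a scaffold of spliceosomes, rose by 0.25, and the cold-induced RBM3 (-0.45) and U2AF2, which binds the polypyrimidine tract (-0.22, edgeR adjusted p up to 0.0714 without 1 library), fell. Of 14 genes of nonsense-mediated decay none passed the edgeR test (0 higher and 4 lower at an unadjusted p below 0.05, DESeq2 3 lower).

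Genes of the glioma growth and invasion list and of the matrix and integrin list moved in both directions. Of 24 genes of the glioma growth and invasion list 2 rose and 3 fell, beside 1.6% and 2.6% of all genes, with a median of -0.04. MET, the receptor of hepatocyte growth factor, stood at 436, 452 and 488 CPM in control and 639, 675 and 640 CPM in siRNA libraries (log2 change 0.51, SE 0.079, edgeR adjusted p = 0.00468, called without each library), and TGFB2 rose by 0.15. EGFR fell by 0.25 (371 to 313 CPM), its ligand TGFA by 0.35 (236 to 186 CPM) and PDGFRB by 0.27 (54.8 to 45.4 CPM). The call of EGFR was lost without control replicate 1 or 2 or siRNA-TRA2B replicate 1 (edgeR adjusted p up to 0.0718) and that of PDGFRB without control replicate 1 or 3 or siRNA-TRA2B replicate 1 or 3 (up to 0.0863). In MDA-MB-231 MET also rose (0.68, edgeR adjusted p = 0.000484) and TGFA also fell (-0.30, edgeR adjusted p = 0.00559). PDGFRB (-0.19) and EGFR (0.0) were not called there. The difference between the lines was not called for MET, TGFA, PDGFRB or EGFR. Of 46 matrix and integrin genes 3 fell, the collagens COL5A1 (-0.51) and COL1A1 (-0.39) and the collagen crosslinker LOXL2 (-0.32), and 2 rose, the laminin LAMA4 (0.36) and the protease MMP3 (0.49), with a median of -0.01. COL5A1 stood at 326, 314 and 287 CPM in control and 219, 216 and 216 CPM in siRNA libraries, with no overlap (SE 0.043, edgeR adjusted p = 0.00018). In MDA-MB-231 the log2 changes were -0.18 for COL5A1, 0.06 for COL1A1, -0.08 for LOXL2 and 0.31 for LAMA4. The difference between the lines was called for COL5A1 and COL1A1 and not for LOXL2 and LAMA4. Of the 8 fibroblast markers COL1A1 and PDGFRB fell, and of the 7 epithelial markers EPCAM fell by 0.54 at 0.666 CPM in control libraries, a call lost without any 1 library (edgeR adjusted p up to 0.194).

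Of 32 genes of hypoxia and glycolysis 5 fell and 0 rose, beside 2.6% and 1.6% of all genes (13 and 0 at an unadjusted p below 0.05, DESeq2 8 and 0), with 31 of 32 below 0 and a median of -0.13, beside -0.11 in MDA-MB-231. P4HA1, a collagen prolyl hydroxylase, stood at 410, 404 and 402 CPM in control and 328, 346 and 336 CPM in siRNA libraries (log2 change -0.27, SE 0.048, edgeR adjusted p = 0.00923). The others were EGLN3, an oxygen sensor whose counts are uncertain because a gene overlaps it on its strand (-0.43), ANGPTL4, an inhibitor of lipoprotein lipase (-0.43), the glycolytic regulator PFKFB4 (-0.30) and the glucose transporter SLC2A1 (-0.30). The calls of ANGPTL4 and PFKFB4 were lost without at least 1 library (edgeR adjusted p up to 0.131 and 0.122).

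The stress lists had between 1 and 3 called genes each, beside 4.2% of all genes called. Of 25 p53 targets TP53INP1 (-0.54) and DDB2 (-0.23) fell and PLK2 (0.25) rose, with a median of 0.03. TP53INP1 stood at 28.7, 32.3 and 28.9 CPM in control and 18.9, 20.9 and 21.8 CPM in siRNA libraries (edgeR adjusted p = 0.00119). STC2, a secreted glycoprotein, fell by 0.35 as the only call among 25 genes of the integrated stress response, and HYOU1, a chaperone of the endoplasmic reticulum, fell by 0.50 as the only call among 19 ER chaperones. The highest edgeR adjusted p without 1 library was 0.0732 for HYOU1 and 0.101 for DDB2. The heat shock gene HSPH1 rose by 0.22 (edgeR adjusted p up to 0.0632, lost without control replicate 1 or 2). Of 37 interferon response genes IFI44L rose and OAS3, which senses double-stranded RNA, fell by 0.30 (edgeR adjusted p = 0.00775). The snoRNA hosts SNHG3 (0.24) and SNHG8 (0.28) rose among 17, calls lost without 1 library (edgeR adjusted p up to 0.157 and 0.167), and SNHG3 shares its strand with an overlapping gene.

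No member passed the edgeR test in the remaining lists: 53 cytosolic ribosomal proteins (0 higher and 1 lower at an unadjusted p below 0.05, DESeq2 0), 42 genes of oxidative phosphorylation (0 and 2, DESeq2 0), 25 of sterol synthesis (1 and 2, DESeq2 0), 23 of NF-kB and cytokines (2 and 1, DESeq2 1) and 13 of small RNA silencing (1 and 1, DESeq2 0). Their medians lay between -0.04 (small RNA silencing) and 0.08 (NF-kB and cytokines). edgeR called 0 markers of neurons (3 tested, 0 at an unadjusted p below 0.05, DESeq2 1 higher), oligodendrocytes (2 tested, 1 lower, DESeq2 1 lower), immune cells (3 tested, 1 higher, DESeq2 0) and endothelium (4 tested, 0, DESeq2 0).

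The siRNA effect differed between U87MG and MDA-MB-231 for 122 of 23141 genes (0.527%), 29 with a higher (0.125%) and 93 with a lower change in U87MG (0.402%). Of the 971 genes called in U87MG, 400 were also called in MDA-MB-231 (where 7.24% of all genes were called), 396 of them in the same direction, and 44 of the 971 had a called difference. TRA2A rose more in U87MG than in MDA-MB-231, where it went from 91.1 to 189 CPM (log2 change 1.05, difference 0.50, edgeR adjusted p = 0.00711), while the fall of TRA2B did not differ by the test (-3.11 in MDA-MB-231, difference 0.29, edgeR adjusted p = 0.26). EXO1 fell in U87MG and stood at 34.7 and 35.3 CPM in MDA-MB-231 (difference -0.47, edgeR adjusted p = 0.0101). PAX8-AS1 differed by 1.09 (edgeR adjusted p = 0.0327). The count fell to 26 without siRNA-TRA2B replicate 1, 44 without control replicate 2, 53 without control replicate 1 and 54 without control replicate 3, and the calls of TRA2A and EXO1 but not of PAX8-AS1 (up to 0.0674, lost without control replicate 2 or 3 or siRNA-TRA2B replicate 1) held without each library. DESeq2 called 437 differences, RLE scaling 80 and no low-count filter 27.

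Several of the largest differences came from genes with no called change in U87MG. COL6A3, a collagen of the pericellular matrix, stood at 3052, 3249 and 2992 CPM in control and 2637, 2909 and 2783 CPM in siRNA libraries of U87MG (log2 change -0.16, edgeR adjusted p = 0.306), while it rose from 83.2 to 136 CPM in MDA-MB-231. NPR3, a clearance receptor of natriuretic peptides, stood at 23.4, 24.3 and 24.0 CPM in control and 19.5, 23.4 and 23.0 CPM in siRNA libraries of U87MG and rose from 5.99 to 11.9 CPM in MDA-MB-231. MARCHF4, a membrane ubiquitin ligase, stood at 25.6 and 25.3 CPM on average in U87MG and rose from 3.68 to 7.03 CPM in MDA-MB-231. In each of these genes the level in U87MG controls was above that of MDA-MB-231 before and after the siRNA.

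**Figure D5:**
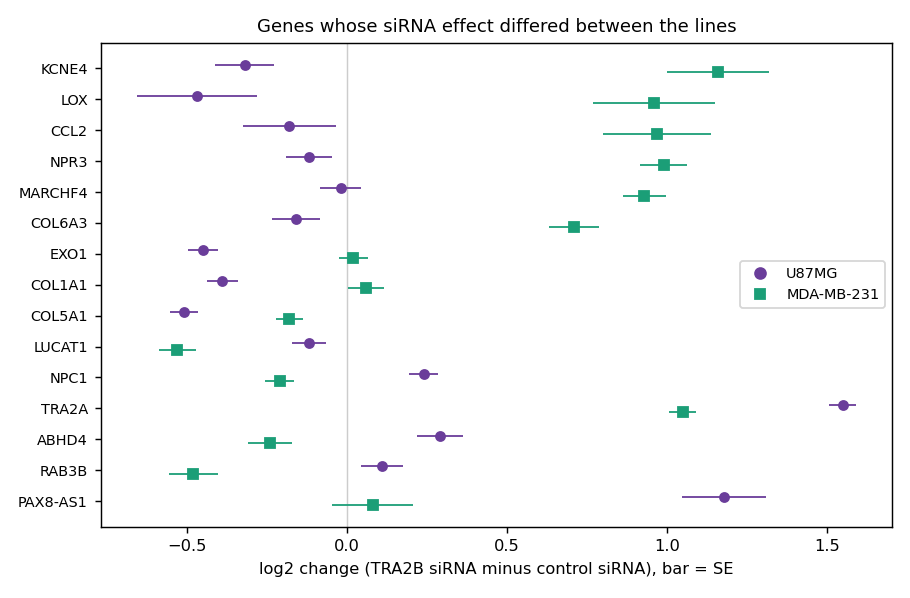
log2 change (TRA2B siRNA minus control siRNA) in U87MG (circles) and MDA-MB-231 (squares) for the named genes with a called difference between the lines; bars are the SE. KCNE4 lies at -0.32 and 1.16, TRA2A at 1.55 and 1.05 and PAX8-AS1 at 1.18 and 0.08.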

How the data were processed

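Gene levels were read from the siRNA table of raw counts per gene, deposited by the authors without scaling, and splicing from their table of PSI, deposited by the authors as a fraction from 0 to 1 per event and library. The submitters' processing notes name GRCh38 and the tools STAR, StringTie, Trimmomatic, FastQC and MultiQC, with no role given. Per the file name the PSI came from rMATS. Versions, settings, the strand option and the reads behind each PSI are not given in the sources used here. Per the labels, libraries came from a stranded mRNA kit read as pairs of 151 bases.

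Counts were fitted with edgeR 4.0.16 in R 4.3.3 (filterByExpr, TMM, quasi-likelihood, all 12 siRNA libraries in 1 fit), and genes called at a Benjamini-Hochberg adjusted p below 0.05. log2 changes are siRNA minus control, and CPM are counts scaled to library size. PSI was fitted with limma 3.58.1 (trend) over the same 12 libraries, for events with values in all 6 U87MG libraries and a range of at least 0.05. Missing MDA-MB-231 values were left out event by event. Differences between the lines were interaction terms of those fits. DESeq2 1.42.0 served as an alternative. The fits were tested on simulated data.

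The labels do not say that a replicate number marks a shared culture or day, so samples were not paired in the main fits. Deviations from the group mean in same-numbered libraries correlated at 0.067, -0.022 and -0.009 in U87MG. In MDA-MB-231 the values were 0.045, 0.019 and 0.102. These values cannot decide whether libraries shared a culture or day. Exons were placed with GENCODE 29, which gave a position to 58561 of 60668 gene identifiers. Figures were drawn with matplotlib 3.10.9 in Python 3.11.15.

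The comparison and the 29 gene and marker lists were chosen with earlier results of these data known. Named genes were TRA2B and TRA2A, the 12 largest rises and 12 largest falls among called genes (average log2 CPM 3 or more, groups apart), up to 4 called members per list, and up to 6 genes per direction for the difference between the lines. Genes overlapped on their strand by over 2.0% of their counts were left out of the largest changes. Named events were the poison exons, the event with the smallest p in each known TRA2 target gene, and the largest called PSI changes. These changes came from genes with an average log2 CPM of 3 or more and groups apart. They were up to 14 lower and 10 higher cassette exons, and 3 per direction of other types. Further list members and events were named after their values were seen, and a few results are not reported here.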

Additional observations from a re-analysis of the deposited data

Results flagged for a closer look

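The siRNA effect differed between U87MG and MDA-MB-231, by the interaction term, for 15 named genes and 1 splicing event, and each value is the U87MG minus the MDA-MB-231 change. Among genes whose log2 change was lower in U87MG, the difference was -1.48 for KCNE4, a potassium channel subunit (-0.32 in U87MG, 1.16 in MDA-MB-231, where its level was 0.0875 CPM in controls), -1.43 for LOX, -1.15 for CCL2, -1.11 for NPR3, -0.95 for MARCHF4 and -0.86 for COL6A3. The U87MG groups overlapped for LOX, CCL2, NPR3 and MARCHF4, and LOX had control values of 1924, 1128 and 1028 CPM. The difference was -0.47 for EXO1, -0.44 for COL1A1 and -0.33 for COL5A1. It was higher in U87MG by 1.09 for PAX8-AS1, 0.60 for RAB3B, 0.52 for ABHD4, 0.50 for TRA2A, 0.44 for NPC1 and 0.41 for LUCAT1, whose U87MG groups overlapped. edgeR adjusted p ran from 0.00242 (NPR3 and MARCHF4) to 0.0499 (CCL2). The differences of KCNE4, COL6A3, NPR3, MARCHF4, EXO1 and TRA2A were called without each of the 6 U87MG libraries. The others lost the call without at least 1, with the highest edgeR adjusted p between 0.0616 (NPC1, without siRNA-TRA2B replicate 1) and 0.12 (ABHD4).

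The alternative 5′ splice site of NPEPL1 differed by 0.789 in PSI, with 1.000 in each MDA-MB-231 control library, 0.230, 0.230 and 0.070 in the MDA-MB-231 siRNA libraries, 0.333, 0.310 and 0.310 in U87MG controls and 0.257, 0.219 and 0.375 in U87MG siRNA libraries. The reads behind these values are not known.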

How the results depend on the processing

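The tests use the spread between libraries, and the number of libraries limits what could be called. The count of 971 called genes (370 rose, 601 fell) was 1694 (655 and 1039) with DESeq2 and 481 (174 and 307) without the low-count filter. Without 1 library it ran from 476 to 779 (rose 167 to 334, fell 309 to 463). The 122 differences between the lines (29 higher, 93 lower in U87MG) were 437 (154 and 283) with DESeq2, 80 (lower 58) with RLE scaling and 27 (7 and 20) without the filter, and 26 to 92 without 1 library (higher 3 to 31, lower 23 to 70).

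The 70 called splicing events (19 higher, 51 lower) were 106 without a minimum range (higher 31). Lower events numbered 32 on the logit scale, 30 at a minimum difference of 0.20 and 78 in genes of at least 10 CPM. With only the U87MG libraries limma called 0 (higher 0, lower 0; 3395 at an unadjusted p below 0.05), and 0 again with only those libraries and genes of at least 10 CPM, an alternative chosen after seeing the data (2820 at an unadjusted p below 0.05, smallest adjusted p 0.102). The cause was not tested. Without 1 library the count ran from 40 to 69 (higher 16 to 27, lower 23 to 51). The single called difference between the lines became 9 on the logit scale (6 higher, 3 lower), 4 without a minimum range (lower 3), 0 in genes of at least 10 CPM (1681 at an unadjusted p below 0.05) and 2 to 11 without 1 library (higher 1 to 7, lower 0 to 4).

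With the replicate number as a block, edgeR called 1262 genes (514 rose, 748 fell; 849 shared with the fit without it) and 110 differences, while limma called 0 splicing events (higher 0, lower 0; 3851 at an unadjusted p below 0.05, smallest adjusted p 0.28) and 0 differences (higher 0; 2046). With the block and genes of at least 10 CPM, chosen after seeing the data, limma called 0 (3107, smallest adjusted p 0.173). The labels do not say that a shared number marks a pair, so this is not read as a paired result.

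The PSI differences of the poison exons, without 1 library, ran from 0.009 to 0.040 for TRA2B and from -0.001 (without siRNA-TRA2B replicate 1) to 0.074 for its other event. For TRA2A they ran from -0.253 to -0.227 (312 bases), -0.224 to -0.206 and -0.331 to -0.221 (301 bases), and -0.107 to -0.100 and -0.037 to 0.000 (79 bases). MARCHF4 had a log2 change of 0.03 without siRNA-TRA2B replicate 3 beside -0.02 (range without 1 library -0.05 to 0.03). Of 66 named genes called in U87MG 42 were called without each library, of 70 events 20 and of 15 gene differences 6.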
